A study of Mus musculus with 10 samples.

Results

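RNA from the caudal end of the neocortex was compared with RNA from its rostral end in C57 mouse embryos of stage E11.5, across all genes of a 2-colour oligonucleotide array. The C57 experiment consists of the 4 arrays titled with that strain, out of 10 in the series, and was chosen by those titles alone. It holds 2 pools, each of the rostral and the caudal end pieces of the neocortex of 3 embryos. A pool's caudal and rostral RNA went together onto an array, and onto another with the labels swapped. C57 is an inbred strain without any added allele or treatment named in the labels. The other 6 arrays hold 3 pools of the outbred stock MF1, dissected, pooled and hybridised in the same way at the same age, and are used here only for comparison. RNA was extracted with Trizol and its cDNA amplified before labelling. The design speaks of 3 sets per strain; a further C57 set is not analysed here.

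At this age the cortical wall is a sheet of dividing neuroepithelial cells with the first neurons at its outer surface. Position along the rostrocaudal axis is set up by signalling centres at its edges. FGF ligands from the rostral midline induce the ETS factors Etv1, Etv4 and Etv5 and the feedback inhibitors Spry1 and Dusp6. WNT and BMP ligands come from the cortical hem at the caudomedial edge, next to the choroid plexus. In the sheet itself the nuclear receptor Nr2f1 and the homeobox factor Emx2 are known for high caudal levels, Pax6 and Sp8 for high rostral ones.

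Every value is a log2 ratio of caudal over rostral RNA, centred on the median of its array, so a positive value means relatively more caudal RNA. No source states this direction, but it is likely. It reads the ratio as Cy5 divided by Cy3, on the basis of the dye labels and of the known sides of Nr2f1, Etv1, Etv5 and Spry1, whose direction is therefore no separate evidence; with the opposite reading all signs turn together. Of 21766 probes that are not control spots, 18289 (84.0%) gave a ratio on all 4 C57 arrays, and 14187 of these carry 1 gene symbol, for 12992 genes. The array medians before centring ran from -0.20 to 0.67, which put the pools at -0.17 and 0.37. Without centring, values of pool 1 are 0.18 lower and those of pool 2 0.37 higher, and the mean of the pools about 0.1 higher, so the side of a pool value smaller than these depends on the centring. A log2 ratio of 0.5 is a 1.41-fold difference. Ratios carry no expression level, so the tissue could not be checked by the presence of its markers; Emx2, Lhx2, Pax6, Sox2 and Fezf2 gave ratios on all 4 arrays. In such bulk tissue, fewer cells of a type and less RNA per cell cannot be told apart.

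The pools did not rank the genes alike. Across the 18289 probes, which share arrays and amplification, the correlation of pool 1 with pool 2 was -0.02 (Spearman -0.05). The 2 arrays of pool 1 correlated at 0.04, and those of pool 2 at -0.14. Between pools, the array of pool 1 with rostral RNA in Cy5 correlated at 0.24 with its counterpart in pool 2 and at -0.23 (Spearman -0.33) with the pool 2 array of the other dye order. The part of the ratio that changes sign with the dyes exceeded the regional part for 43.9% of probes in pool 1 and 53.3% in pool 2. The SD over probes was 0.57 in pool 1 and 0.38 in pool 2. On the plot of pool 1 against pool 2, most probes lie along the axes, and few lie far out on the diagonal.

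**Figure D1:**
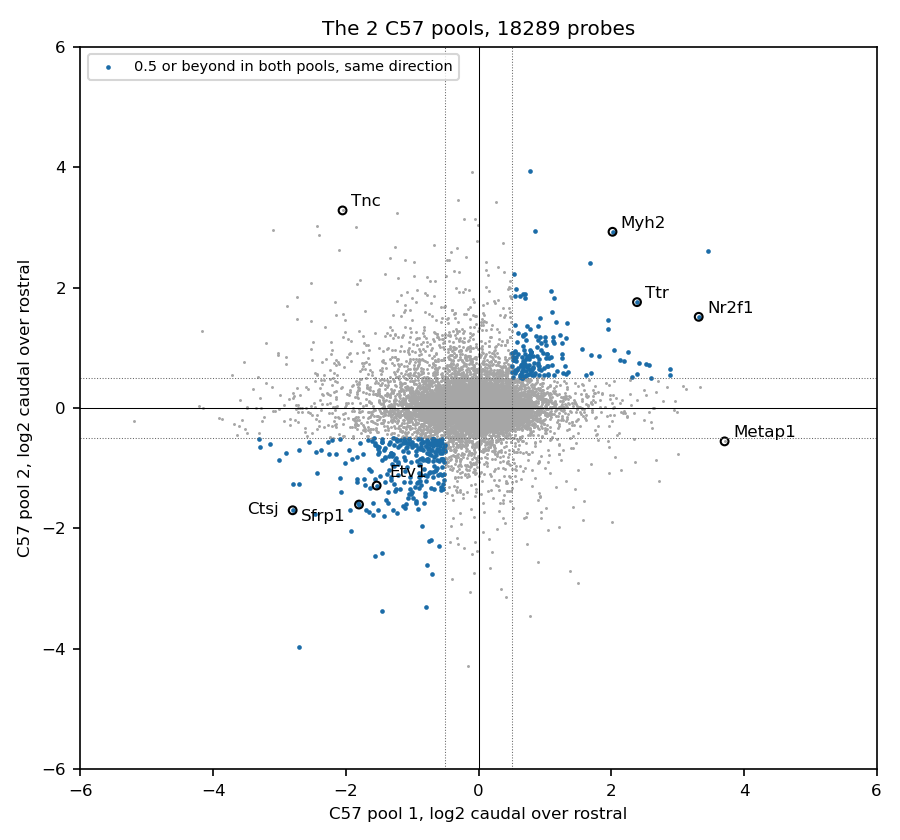
Log2 ratio of caudal over rostral RNA of each of 18289 probes in C57 pool 1 (horizontal) and C57 pool 2 (vertical), each the mean of the pool's 2 arrays. Blue points reached 0.5 in the same direction in both pools; circles mark probes named in the text, with Tnc and Metap1 far out in opposite quadrants.

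The main comparison asked which genes distinguish the ends of the C57 neocortex. In limma, 0 of 18289 probes (0%) lay under 0.05 after Benjamini-Hochberg adjustment, and the smallest adjusted p was 1. At an unadjusted limma p under 0.05, 279 probes had a positive ratio (1.53%) and 340 a negative one (1.86%). The pools are separate collections of embryos, and p-values and SE measure only the spread between pools. That spread is shared with the MF1 pools where they were measured; for 6434 probes it rests on the C57 pools alone, before limma moderates it over all probes. By sign changes alone 2 pools cannot give a two-sided exact p below 0.5. All differences below are therefore descriptions of 2 pools. When the 10 arrays were fitted singly in limma, with a dye term and the pool as a random block, 2 probes passed, for Sfrp1 and Ttr (adjusted p = 0.0373). On the simpler count, 165 probes (0.902%) lay at 0.5 or above in both pools and 267 (1.46%) at -0.5 or below. In comparison, 430 probes reached 0.5 in opposite directions, 103 of them high in pool 1 and 327 high in pool 2. The sign was the same on all 4 arrays for 1118 caudal (6.11%) and 1055 rostral probes (5.77%), and 31 caudal (0.17%) and 46 rostral probes (0.252%) reached 0.5 on each single array. Without centring, 322 probes lay at 0.5 or above and 149 at -0.5 or below in both pools.

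Among probes with 1 symbol and the same sign on all 4 arrays, the 12 in each direction with the largest smaller pool value are described first. They span patterning genes, a choroid plexus gene, and genes of other kinds. Array values are given in a fixed order: pool 1 with caudal RNA in Cy5, pool 1 with rostral RNA in Cy5, then the same for pool 2. Nr2f1 (probe CG_Mm_3001348_1) had ratios of 4.18, 2.46, 1.03 and 2.0, a mean of 2.42 ± 0.43 (moderated SE, n = 2 pools), or 5.34-fold. All 4 arrays were high, and pool 1 at 3.32 stood well above pool 2 at 1.52. Ttr, which carries thyroid hormone and is made by choroid plexus, had 2.14, 2.64, 1.69 and 1.83, with a mean of 2.07 ± 0.22. Its 4 arrays lay close together and did not separate by dye. Myh2, a myosin heavy chain of fast muscle, had the highest mean of the 24, 2.47 ± 0.30, from 2.85, 1.19, 4.28 and 1.58. In both pools the array with caudal RNA in Cy5 was the higher one.

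The next caudal probes were smaller or less even. Hgd, an enzyme of tyrosine breakdown, had 1.27, 2.63, 1.65 and 0.98 at this probe, while a second Hgd probe had pool values of 0.14 and -0.17. Med24, a subunit of the Mediator complex, had 1.06, 1.57, 0.95 and 1.37. Abcg5, a sterol transporter, had 1.55, 0.73, 0.94 and 1.21. These 3, with Lrguk and the CDK2 activator Cacul1 at means of 1.12 and 1.01, reached 0.5 on every array, as did Nr2f1, Ttr and Myh2. The potassium channel Kcnj5 had a mean of 0.96 with 0.43 on its lowest array. The remaining caudal probes, 2610528J11Rik, Zdhhc24 and 4930573O16Rik, had means from 1.17 to 1.38, but each was near 0 on 1 array, at 0.03, 0.05 and 0.02.

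On the rostral side Sfrp1, a secreted WNT antagonist, was one of the most even. Its first probe (CG_Mm_3005020_1) had -1.73, -1.88, -1.78 and -1.42, a mean of -1.70 ± 0.15 (n = 2 pools), 3.26-fold lower caudally. No probe had a smaller p in limma, and its adjusted p was 1. All 4 arrays lay far below 0 with no gap between the dye orders. Scrn1, a secernin, was as tight, with -1.39, -1.35, -1.27 and -1.51. Jakmip3, a microtubule-binding protein of neurons, had -1.29, -1.30, -1.73 and -1.66, so that pool 2 lay below pool 1 whatever the dye. Pantr2, a non-coding RNA next to the POU factor gene Pou3f3, had -1.81, -1.61, -1.06 and -1.50. Sall4, a zinc finger factor of early embryonic cells, had -1.27, -1.75, -1.17 and -2.21. Etv1 had -2.43, -0.65, -1.10 and -1.47. Ctsj, a cathepsin known from placenta, had -2.24, -3.37, -0.93 and -2.47, the lowest mean of the 24 at -2.25 ± 0.35.

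Of the other rostral probes of the 24, 4 differed by dye order in the same way in both pools. Cpvl, a carboxypeptidase, had -0.50 and -0.02 when caudal RNA carried Cy5 and -4.44 and -3.52 on the others. Ms4a13, a membrane-spanning protein, had -0.32 and -0.05 against -3.06 and -3.34, and 6430628N08Rik -0.77 and -0.21 against -2.52 and -3.25. Ighv6-6, an immunoglobulin variable segment, went the other way, with -2.92 and -2.85 against -0.72 and -0.31. The fifth, the vomeronasal receptor Vmn1r58, had -1.90, -0.57, -0.10 and -3.37, so that the dye order with the lower value differed between the pools. In all, 15 of the 24 probes reached 0.5 on each array, 8 caudal and 7 rostral. Only 10 of the 24 were measured in 2 or more MF1 pools, and 8 in none.

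**Figure D2:**
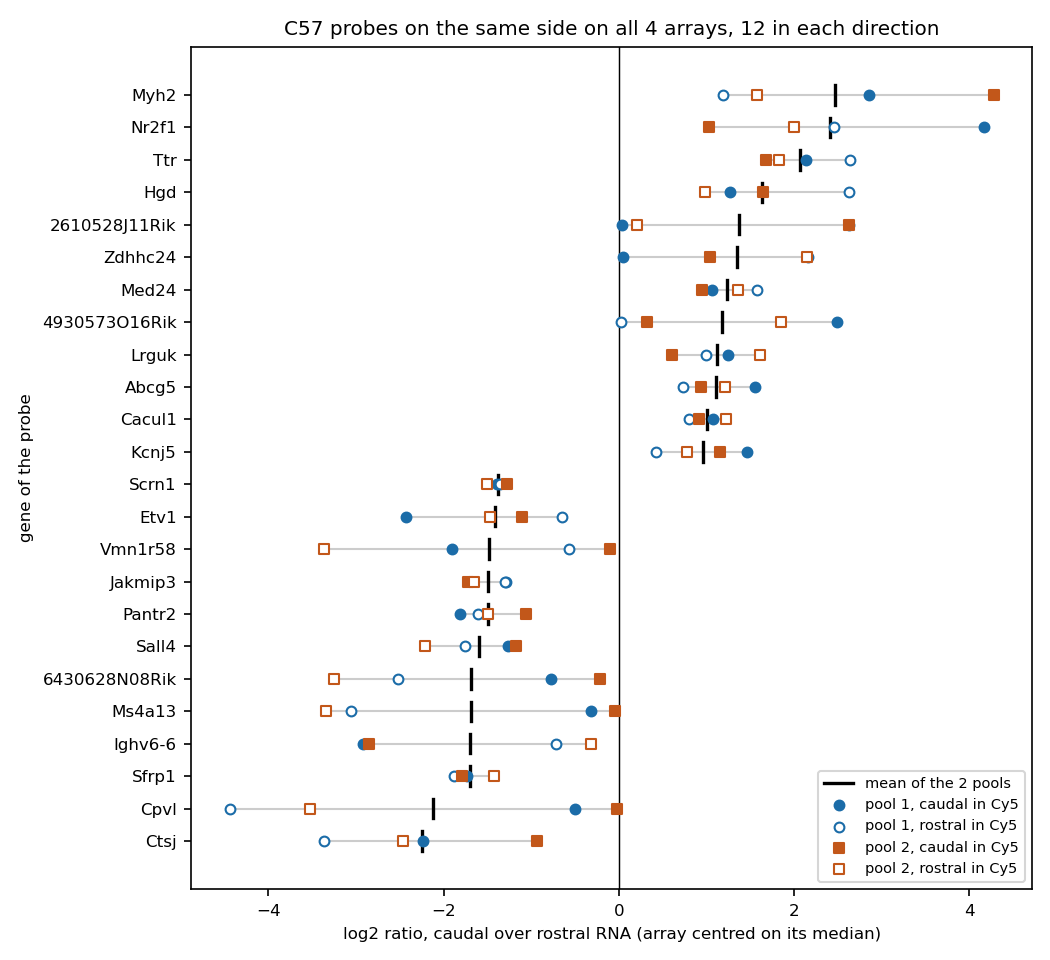
Log2 ratio of caudal over rostral RNA (horizontal) of the 24 probes on each of the 4 C57 arrays, with a bar at the mean of the pools; circles are pool 1, squares pool 2, and open symbols the arrays with rostral RNA in Cy5. Sfrp1 and Scrn1 have their 4 points together, while Cpvl and Ms4a13 split by dye order.

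The caudally graded patterning genes had a median of 0.18 over 7 probes, 0.49 in pool 1 and 0.06 in pool 2, beside 0.01 over all probes. Above 0 in both pools were 5 of the 7 (25% of all probes), and 1 reached 0.5 in both, the Nr2f1 probe above. For this and the lists below, 0.902% of all probes reached 0.5 in both pools and 1.46% reached -0.5. A second Nr2f1 probe had 0.99, 0.96, -0.15 and 1.11, a mean of 0.73 ± 0.21. It was lower than the first probe in both pools and negative on 1 array. Lhx2, a selector of cortical identity, had 0.88, 0.41, 0.23 and 0.28. Emx2 had 0.63, 0.36, -0.62 and 0.37, with pool 1 at 0.49 and pool 2 at -0.13 (0.31 and 0.24 without centring). Fgfr3, an FGF receptor known for high caudal levels, had pool values of 0.11 and 0.00.

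The list of FGF ligands, receptors and feedback targets had the lowest median of the 32 lists, -0.16 over 18 probes for 16 genes (-0.07 without centring), with -0.20 in pool 1 and -0.12 in pool 2 (-0.38 and 0.25 without centring). Of the 18, 3 reached -0.5 in both pools (16.7%, beside 1.46% of all probes) and 0 reached 0.5. Below 0 in both pools were 10, beside 22.4% of all probes. Negative on all 4 arrays were 5 of the 18, 27.8% beside 5.77%. These genes were chosen with this pattern known. The ligands themselves were near 0, with Fgf8 at -0.12 and -0.18 and Fgf17 at -0.18 and -0.11 in the pools. Etv1 is given above. Spry1 had -0.33, -0.75, -0.85 and -1.68, a mean of -0.90 ± 0.21, with pool 2 at -1.26 below pool 1 at -0.54. Etv5 had -0.67, -0.38, -0.60 and -0.70 at its first probe, with pool values of -0.52 and -0.65 (-0.70 and -0.28 without centring). A second Etv5 probe had 0.26, 0.18, -0.48 and -0.42, with pool values of 0.22 and -0.45 (0.04 and -0.08 without centring). Dusp6, a phosphatase of ERK, had -1.02, -0.35, -0.56 and -0.43, and its pool 2 value of -0.49 fell just short of the threshold. Fgf10 was positive on all 4 arrays, at 2.06, 1.41, 0.16 and 0.25, mostly from pool 1. Fgf18 had pool values of -1.19 and -0.11.

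The windows of 250 bases before the transcription start of Nr2f1 and of the 3 FGF target genes at -0.5 or below are shown because these genes carry the caudal and the rostral patterning values. They are from RefSeq on GRCm38.p6: chr13:78198874-78199123 (minus strand) for Nr2f1, chr12:38779832-38780081 (plus) for Etv1, chr16:22439571-22439820 (minus) for Etv5 and chr3:37639697-37639946 (plus) for Spry1. Each is written 5′ to 3′, and capitals mark CCAAT or its reverse ATTGG.
Nr2f1: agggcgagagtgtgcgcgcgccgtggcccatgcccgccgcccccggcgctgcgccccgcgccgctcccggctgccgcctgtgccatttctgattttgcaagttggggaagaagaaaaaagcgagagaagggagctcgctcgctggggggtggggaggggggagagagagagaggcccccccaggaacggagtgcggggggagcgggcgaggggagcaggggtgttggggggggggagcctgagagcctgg
Etv1: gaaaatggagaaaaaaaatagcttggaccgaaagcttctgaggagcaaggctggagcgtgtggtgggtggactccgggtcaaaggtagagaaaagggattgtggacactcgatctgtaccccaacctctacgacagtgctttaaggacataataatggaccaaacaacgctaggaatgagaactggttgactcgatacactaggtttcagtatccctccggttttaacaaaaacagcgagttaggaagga
Etv5: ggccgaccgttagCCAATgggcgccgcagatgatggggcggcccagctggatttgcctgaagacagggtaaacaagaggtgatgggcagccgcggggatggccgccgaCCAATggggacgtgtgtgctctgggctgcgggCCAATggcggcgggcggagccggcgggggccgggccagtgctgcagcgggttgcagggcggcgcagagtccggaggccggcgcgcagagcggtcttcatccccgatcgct
Spry1: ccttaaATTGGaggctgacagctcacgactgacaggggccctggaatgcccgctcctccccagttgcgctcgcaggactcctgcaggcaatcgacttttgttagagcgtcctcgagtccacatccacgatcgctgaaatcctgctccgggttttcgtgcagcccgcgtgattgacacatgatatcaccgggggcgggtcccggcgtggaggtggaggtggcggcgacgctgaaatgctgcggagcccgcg

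These windows were searched on both strands for the ETS word CCGGAAG, the TCF/LEF word CTTTGAT, the nuclear receptor half-site AGGTCA and the CCAAT box. The first 3 words occur in none of the 4 windows. Among 32851 promoter windows of the same length they occur in 6.91%, 3.21% and 14%. Shorter forms of the ETS site, such as GGAA, were not counted. CCAAT occurs 3 times for Etv5, once for Spry1 and in 33.8% of all windows. No match overlaps a match of another word. GC content runs from 46.4% for Etv1 to 62.4% for Spry1, 71.2% for Etv5 and 72.0% for Nr2f1. No promoter sequence was given for Sfrp1, and the data hold no measure of factor binding.

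The rostrally graded patterning genes had a median of -0.15 over 9 probes (-0.05 without centring), and all 3 that reached -0.5 were the FGF targets just described. Of these, Etv5 reached it in both pools only with centring. Pax6 had pool values of 0.58 and -0.27 at one probe and 0.39 and -0.16 at the other. Without centring these were 0.40 and 0.10, and 0.21 and 0.21. Over the 38 probes for cortical transcription factors the median was 0.12, with 0.25 in pool 1 and 0.01 in pool 2. Above 0 in both pools were 19, beside 25% of all probes. Only 1, Nr2f1, reached 0.5 in both (2.63%, beside 0.902%). Fezf2, which specifies deep-layer projection neurons, had 0.91, 0.67, 0.26 and 0.28. Pou3f2, a POU factor of cortical progenitors, had pool values of -0.45 and -0.45 at one probe and -0.08 and -0.02 at the other. Pou3f3 stood at 0.10 in both pools. Its neighbour Pantr1, like Pantr2 a non-coding RNA, had -0.26, -0.55, -1.04 and -1.0. Pantr1 was picked after its values were seen.

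Among WNT receptors, antagonists and targets (27 probes, median -0.07, and 0.03 without centring) 2 reached -0.5 and 1 reached 0.5 in both pools. The shares were 7.41% and 3.7%, beside 1.46% and 0.902% of all probes. The 2 at -0.5 or below are both probes of Sfrp1, the second with pool values of -1.19 and -1.35. The receptor Fzd7 lay on the caudal side on every array, with 0.76, 1.03, 0.74 and 0.68. Tcf7l1, a repressor of WNT targets, had pool values of -0.25 and -0.55. For the cortical hem and choroid plexus (19 probes, median 0.07, 0.11 in each pool) 2 probes reached 0.5, Ttr and Rspo3, and 0 lay below 0 in both pools. Rspo3, a secreted enhancer of WNT signalling, had 1.15, 0.44, 0.44 and 0.78. The hem ligand Wnt3a had 0.31, -0.12, 0.12 and 0.10, and Wnt8b had pool values of -1.46 and 0.78. Of 20 BMP pathway probes (median 0.04) 6 were positive and 0 negative on all 4 arrays, beside 6.11% and 5.77% of all probes. The BMP targets Id1 and Id3 were among them, with Id3 at 0.48 and 0.59 in the pools and Id1 at 0.56 and 0.26.

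Ephrins and Eph receptors, contact-dependent guidance molecules, went both ways. Over 19 probes the median was 0.01, while 3 reached -0.5 and 1 reached 0.5 (15.8% and 5.26%, beside 1.46% and 0.902% of all probes). The receptor Epha3 had 0.81, 0.62, 0.88 and 0.76. Its ligand Efna5 had -1.75, -0.80, -1.09 and -0.86. Efnb2, a transmembrane ephrin, had -0.66, -0.78, -0.81 and -0.76, and Efna4 had pool values of -0.94 and -0.71. None of these 4 probes changed sign on any array. In the list of axon guidance genes (40 probes, median 0.06), the semaphorin receptor Nrp2 reached 0.5, with pool values of 0.63 and 0.55, and the netrin receptor Dcc had -0.27 and -0.63 at one probe and 0.14 and 0.00 at the other.

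For the progenitors of the cortical wall, the 21 probes of radial progenitor genes had medians of 0.08 in pool 1 and -0.18 in pool 2. By the mean of the pools, 10 lay above 0 and 11 below. Of the 21, 9 were above 0 in pool 1 and below 0 in pool 2. The glutamate transporter Slc1a3 has 3 probes, all below 0 in both pools, and 2 of them reached -0.5. Its most even probe (CG_Mm_3007085_1) had -0.64, -0.46, -0.67 and -0.82. Lin28a, an RNA-binding protein of early progenitors, had pool values of -1.32 and -0.74, and 0.22 on 1 array. The core progenitor factor Sox2 had -0.05 and -0.30, while Vim had 0.75 and -0.05 and Nr2e1 0.45 and 0.28. Notch pathway genes had a median of 0.07 over 21 probes, with Hes5 at 0.90 and -0.08 and its inducer Dll1 at 1.18 and -0.01 in the pools. Both were higher in pool 1 than in pool 2.

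Proneural and intermediate progenitor genes had the highest median of the lists, 0.20 over 16 probes, with 0.26 and 0.18 in the pools. Of the 16, 6 were positive on all 4 arrays (37.5%, beside 6.11%) and 1 was negative. Neurod1, a bHLH factor of newborn neurons, had 1.5, 0.33, 0.51 and 0.60. Neurog2, the proneural factor of the cortex, had 0.99, 0.66, 0.32 and 0.23. Early neuron genes had a median of 0.14 over 30 probes, with 0.24 and 0.10 in the pools. Positive on all 4 arrays were 8 of the 30, 26.7%, and negative 0. Nhlh2, another bHLH factor of new neurons, had 0.89, 1.2, 0.23 and 0.88, and the adhesion molecule Ncam1 reached 0.5 in both pools at 1 of its 3 probes, the others lying between 0.09 and 0.20. Cajal-Retzius neuron genes had a median of 0.03 over 12 probes, and none kept its sign on all 4 arrays.

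In the cell cycle list (42 probes, median 0.09) the only probes at 0.5 or above in both pools were the 2 of Ccnd2, a D-type cyclin. The first had 0.62, 0.52, 0.63 and 0.65 and the second 0.90, 0.45, 0.60 and 0.69. Ccnd1, its relative, had pool values of -0.25 and -1.07 and was negative on every array. The cyclin kinase inhibitor Cdkn1c, which is also imprinted, had -0.33 and -0.58. Of 29 probes for imprinted genes (median 0.03), Mest, a gene expressed from the paternal allele, had the mean farthest from 0, from -0.72, -0.62, -1.51 and -1.2.

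Markers of blood and of neighbouring tissues are given beside these values. The blood list (20 probes, median 0.09) had 6 probes above 0 and 0 below 0 in both pools, beside 25% and 22.4% of all probes. The other blood probes changed sign between the pools, 5 being above 0 in pool 1 alone and 9 in pool 2 alone. By the mean of the pools, 12 lay above 0 and 8 below. The embryonic globin Hbb-bh1 had 0.87, 0.78, 0.69 and 0.68, and Hbb-y had 1.28, 1.17, 0.44 and 0.33. Hba-x had pool values of 1.30 and -0.09 at one probe. Ventral telencephalon genes (19 probes) had a median of -0.04, and 1 reached -0.5, Ebf1 with pool values of -0.70 and -0.52. The homeobox factors Dlx1 and Dlx2 had -0.29 and -0.46, and 0.13 and -0.20. Endothelial genes (22 probes, median 0.05) had 1 at -0.5 or below, Esm1, a secreted proteoglycan of endothelial tip cells, with -0.74, -0.84, -0.54 and -0.73. Mesenchymal genes (24 probes, median 0.06) had Postn at -1.36 and -1.58, with 0.37 on 1 array, and extracellular matrix genes (35 probes, median 0.07) had Fbln2 at -0.59 and -0.69 and the protease inhibitor Timp1 at 0.54 and 0.82. Medians were 0.05 for macrophages (18 probes), -0.07 for surface ectoderm (20 probes), -0.15 for diencephalon and eye (24 probes) and -0.05 for Hox genes (32 probes). Hoxc12 and Hoxd8 reached -0.5 in both pools but were at 0.51 and 0.74 on 1 array each. The part of these tissues in the values above was not tested.

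Among the lists not yet given, medians were 0.00 for retinoic acid (18 probes), -0.03 for cadherins (43 probes) and for immediate early and heat shock genes (21 probes), 0.07 for glycolysis and hypoxia (21 probes), where the glucose transporter Slc2a3 had pool values of 1.13 and 0.55, and -0.12 for sex chromosome genes (3 probes). Cytosolic ribosomal protein genes had medians of 0.40 in pool 1 and -0.14 in pool 2 over 64 probes, and respiratory chain genes 0.45 and -0.09 over 66. These sides depend on the centring. Without it, the medians were 0.22 and 0.23 for ribosomal proteins and 0.26 and 0.28 for the respiratory chain, beside -0.17 and 0.37 over all probes. The cause of the gap was not tested. The Gapdh control spots, left out of all tests, had centred array medians of 0.65 and 0.33 in pool 1 and -0.22 and -0.08 in pool 2. Without centring the list medians over both pools were 0.09 to 0.10 higher, and 8 of the 12 negative ones turned positive (WNT, Hox, cadherins, immediate early and heat shock, surface ectoderm, ventral telencephalon, radial progenitors and retinoic acid, the last 2 within 0.01 of 0). Of the 32 lists, 20 had medians of the same sign in both pools and 12 of opposite signs; without centring these were 7 and 25. On the plot of centred list medians, the proneural and early neuron lists stand above 0 in both pools. Without centring they were at 0.07 and 0.55 and at 0.06 and 0.47. However, 31 of the 32 uncentred list medians were above 0 in pool 2, and 6 in pool 1, so the pool 2 side says little. In the MF1 pools the centred medians were 0.37, -0.25 and -0.00 for the proneural list and 0.09, -0.28 and 0.13 for early neurons. The FGF list stands below 0 in both C57 pools on the plot, but had -0.38 and 0.25 without centring.

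**Figure D3:**
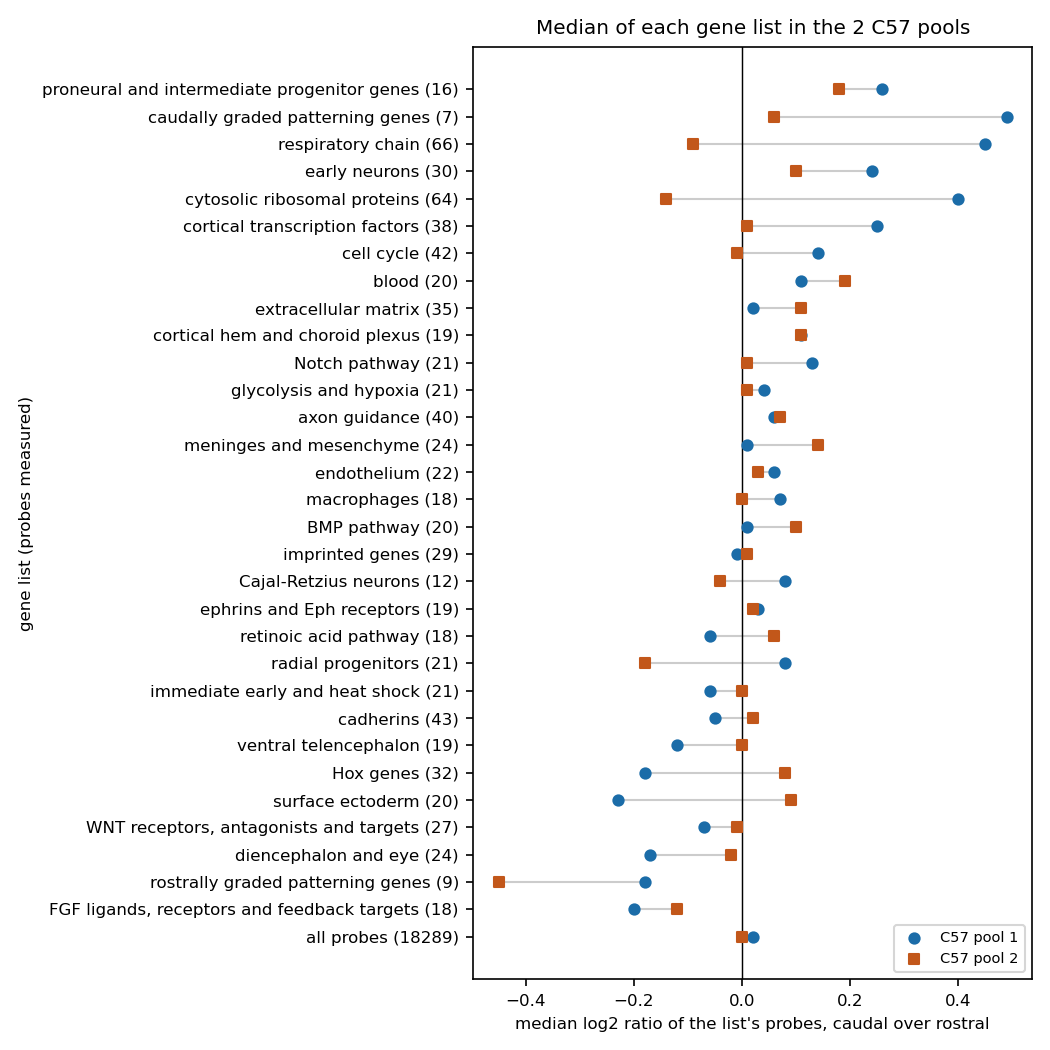
Median log2 ratio of caudal over rostral RNA, centred by array (horizontal), of the probes of each gene list in C57 pool 1 (circles) and pool 2 (squares), with the number of probes; the lowest line gives all 18289 probes. Ribosomal and respiratory chain lists have their pools at 0.40 and -0.14 and at 0.45 and -0.09. Without centring their medians were 0.22 and 0.23, and 0.26 and 0.28.

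Several probes past 0.5 in both pools were neighbours in the array's probe numbering, in 9 runs of 2 or more holding 24 probes. Runs of 2 were Fra10ac1 with Lrguk on the caudal side, and Sall3 with Dazl, Efnb2 with Esm1, and Zfyve26 with Sall4 on the rostral side. Unnamed rostral probes formed further pairs. Whether the values of these pairs relate to their numbers was not tested. The remaining runs were caudal and lay close together. Between the probe numbers 3000670 and 3000703, 12 of the 32 probes measured reached 0.5 in both pools and 0 reached -0.5, beside 0.902% and 1.46% overall. The longest run held Mta2, Smarcb1, Pcnx, H3f3b and an unnamed probe, with means from 0.61 to 0.96. Med24 and Nap1l4 with an unnamed probe, at 0.83 to 1.24, and Nap1l2, H3c1, H2ax and Set, at 0.61 to 0.87, formed the others. Many of these genes encode histones or chromatin proteins, and number and function cannot be told apart here. A second Nap1l4 probe outside the window had pool values of -0.19 and 0.14, while the one in the window had 1.06 and 0.84. Across all probes, the Spearman correlation between probes of consecutive numbers was 0.11 in the main set and 0.08 in the extension set, and 0.01 and -0.01 for numbers 1000 apart. The plot in order of probe numbers shows the 4 arrays moving together at these genes and the MF1 mean moving less. These genes were picked after their values were seen.

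**Figure D4:**
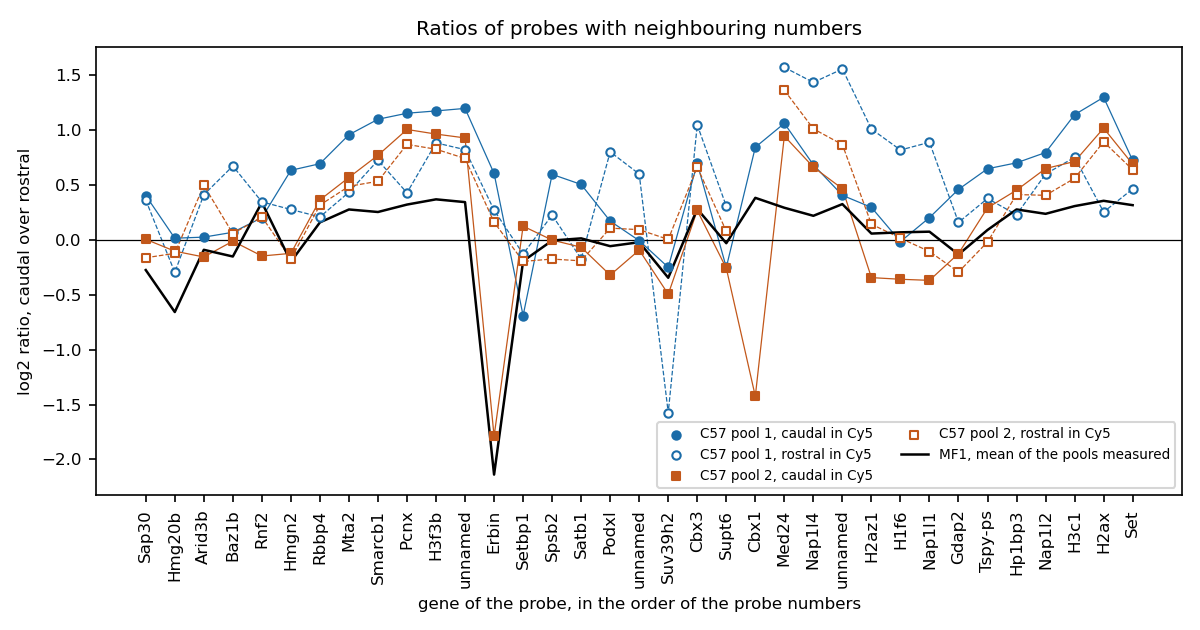
Log2 ratio of caudal over rostral RNA (vertical) on the 4 C57 arrays and the mean of the MF1 pools (black line) for probes of neighbouring numbers, named by gene. Med24, at 0.95 to 1.57 on the 4 arrays, lies beside Nap1l4, at 0.66 to 1.44.

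The second question was whether the regional ratios of C57 differ from those of MF1. None of 11855 probes passed an adjusted p of 0.05 for MF1 minus C57 in limma (0%; smallest adjusted p 0.99), and 168 (1.42%) had a higher and 197 (1.66%) a lower ratio in MF1 at an unadjusted p under 0.05. MF1 took no part in choosing the C57 probes. Of 70 probes at 0.5 or above in both C57 pools and measured in all 3 MF1 pools, 38 (54.3%) were positive in all 3, beside 14.3% of 8924 probes. Without the probes numbered 3000670 to 3000703 this was 26 of 58 (44.8%). Of 50 probes at -0.5 or below, 18 (36.0%) were negative in all 3, beside 8.77%. Without centring the shares were 31.9% beside 7.75% and 42.9% beside 11.4%. Of the 432 probes past 0.5 in C57, 44.0% were measured in 2 or more MF1 pools, beside 64.8% of all.

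Several of the C57 genes above had the same side in MF1 at different sizes. Those among the 24 probes were picked for large C57 values, a choice that by itself favours smaller values in MF1. Nr2f1 had 1.52, 0.98 and 1.03 in the MF1 pools, so that its C57 pool 2 value of 1.52 lay at the top of the MF1 range. The second Nr2f1 probe had -0.11, 0.37 and 0.66 there. Ttr had 0.84, 1.47 and 1.26, beside C57 pools of 2.39 and 1.76. Sfrp1 had -0.92, -0.69 and -0.61 at its first probe, a difference of 0.96 ± 0.23, and -0.98, -1.12 and -0.89 at its second, a difference of 0.27 ± 0.22; neither passed adjustment in limma. Mpped2, a phosphoesterase, had C57 pools of -0.92 and -1.67 and MF1 pools of -1.33, -1.25 and -1.43, which lie between them. Sall3, a zinc finger factor, had C57 pools of -0.69 and -0.88 and MF1 pools of -1.10, -1.51 and -0.90. Esm1, Fzd7, Epha3 and Efnb2 likewise had 1 sign in all 5 pools, Esm1 and Efnb2 at consecutive probe numbers. Efna5 did not, with 0.31 in the only MF1 pool measured. Slc1a3 had MF1 pools of -1.07, 1.52 and 1.07 at probe CG_Mm_3003293_1, and -0.31, -0.91 and -0.38 at CG_Mm_3007085_1. Gpm6a, a neuronal membrane glycoprotein, was positive in all 5 pools at both of its probes. Mpped2, Sall3 and Gpm6a were picked after their values were seen.

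The FGF feedback inhibitors Spry1 and Dusp6 lay farther on the rostral side in MF1. Spry1 had -1.69, -1.67 and -1.95 there, a difference of -0.87 from C57, and Dusp6 had -2.06, -1.33 and -1.59, a difference of -1.07. Neither difference passed adjustment in limma. Timp1 was higher in MF1, at 2.68, 1.95 and 1.98. Dlx2 had -1.36, -1.95 and -1.44 in MF1, against C57 pools of 0.13 and -0.20, and Dlx1 had -0.66, -2.27 and -2.17. Scrn1 and Pantr2 were smaller in MF1, with Scrn1 at -0.62, 0.10 and -0.35 and Pantr2 at -0.92, -0.02 and -0.04. Both were picked for large C57 values, which by itself favours smaller values in MF1. Hbb-bh1 had 0.14, 0.32 and 0.06. Among probes with 1 symbol, the 3 smallest p-values in each direction for the difference belonged to Akp3, Krt18 and Mfap3l on the lower side, by -2.98, -2.33 and -2.27, and to Sox18, Nt5el and Sytl2 on the higher side, by 2.39, 1.71 and 2.53. Of these 6, Nt5el alone was measured in all 3 MF1 pools, and the other 5 rest on 2.

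**Figure D5:**
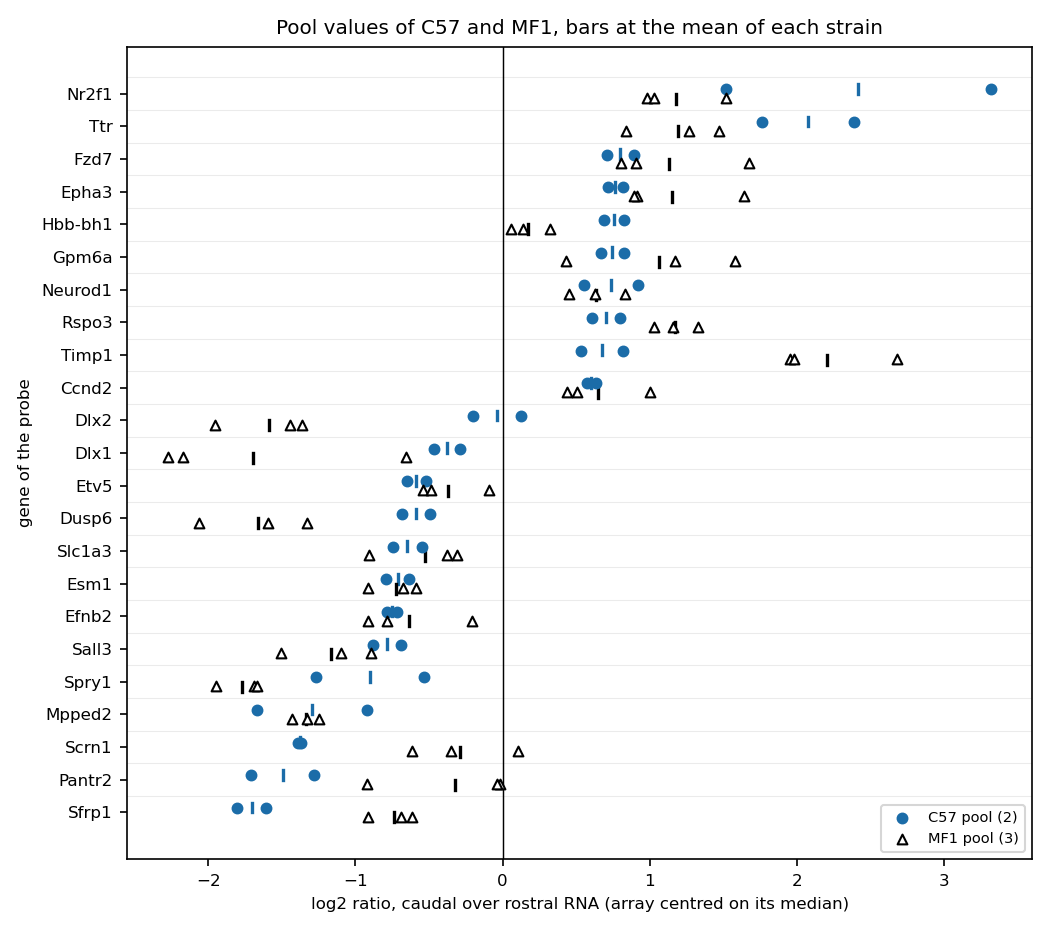
Pool values of the log2 ratio of caudal over rostral RNA (horizontal) for some of the probes named in the text and measured in all 5 pools. C57 pools are circles and MF1 pools triangles, with bars at the strain means. Slc1a3 is shown at probe CG_Mm_3007085_1 alone. Spry1, Dusp6 and Dlx2 lie lower in the MF1 pools. Sfrp1 (first probe), Scrn1 and Pantr2 lie lower in the C57 pools, for which they were picked.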

How the data were processed

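The deposited table holds 1 column per array. Its unit, a log2 ratio of the 2 channels, was read from the deposited values; for scanner, background correction, normalization and genome build, such details are not given in these sources. Shared ceiling values of 16.61 (75 on the C57 arrays) and nulls were set to missing, and 232 Gapdh control spots were left out. Probe symbols came from the platform annotation (16632 of 21766 probes with 1 symbol, 139 with several, 4995 with none), 15952 of them matched to RefSeq genes by identifier. Arrays were all turned to caudal over rostral, then centred on their medians, and the 2 arrays of a pool were averaged to 1 value.

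limma 3.58.1 (lmFit, eBayes; R 4.3.3) was fitted to the 5 pool values, with 1 coefficient per strain and variance weights by strain from arrayWeights, and the C57 coefficient and MF1 minus C57 were tested two-sided with Benjamini-Hochberg adjustment. Residual degrees of freedom were 3 for 8924 probes, 2 for 2931 and 1 for 6434, where the C57 pools alone gave the spread. A probe for the strain difference needed 2 MF1 pools. The procedure was tested on simulated data. The number of arrays limits the precision. Figures were drawn with matplotlib 3.10.9.

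The genes and lists were chosen with earlier results of these data known. Genes were named by rule: the 12 probes in each direction with the largest smaller pool value among probes with 1 symbol and 1 sign on 4 arrays; any probe passing the adjusted p; list members, foremost those farthest from 0; a set of patterning, choroid plexus, ventral and globin genes (no measured probe was named Sp8 or Nr2f2); and the 3 probes in each direction with the smallest p for the strain difference or the largest difference between the C57 pools. Other genes were picked after their values were seen and are said to be. Alternatives covered centring, scaling, probe sets, dye order, probe averaging, the variance model, the pool block, thresholds and leaving out each pool.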

Additional observations from a re-analysis of the deposited data

Results flagged for a closer look

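Nt5el, a nucleotidase-like gene, had ratios on opposite sides in the strains, with C57 pools of -1.03 and -1.14 and MF1 pools of 0.20, 1.10 and 0.58, a difference of 1.71 (limma, adjusted p = 0.99). It was picked for the size of this difference. Groups of 2 and 3 pools are too small for a check of single outlying pools.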

How the results depend on the processing

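For the C57 ratios, limma called 0 probes in 12 of 13 alternatives and in the 5 fits that leave out 1 pool, and for MF1 minus C57 it called 0 in all 8, the pool number as a replicate block included (0 probes). The block was used here only: rostral and caudal RNA of a pool already share an array, and pool numbers shared by the strains are not stated to pair them (correlation of deviations 0.07 over 9598 probes). Fitting the 10 arrays singly, with a dye term and the pool as a random block, called 2 probes, Sfrp1 and Ttr (adjusted p = 0.0373 in limma); the 2 arrays of a pool hold the same RNAs. Without centring, 322 caudal and 149 rostral probes reached 0.5 in both pools, and summed over the lists 26 and 9, in place of 15 and 22. At a log2 ratio of 1 the counts were 20 and 58, and over the lists 3 and 5. At 0.5, arrays with rostral RNA in Cy5 alone gave 37 caudal and 26 rostral list probes, and those with caudal RNA in Cy5 gave 15 and 32, so the balance turned with the dye order. The causes were not tested. For 11 of the 32 lists the median had opposite signs on the arrays of the 2 dye orders. Subtracting a running median of 21 neighbouring probe numbers, chosen after seeing the data, left 147 and 263 probes. Counts over both pools cannot be made without a C57 pool. Every named probe at 0.5 or beyond in both pools kept its sign in all alternatives run for it. Leaving out a pool could not change that sign, and the other alternatives use the same arrays. Signal over background is not known for these ratios.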

Other observations

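Genes with more than 1 probe give a second reading within the same arrays. Of 815 such genes, 47 had a probe at 0.5 or beyond in both C57 pools, beside 432 of all 18289 probes. A gene with more probes had more chances to be counted. None of the 47 had such probes in both directions, and 8 had at least 2 of them. These 8 were Sfrp1, Slc1a3 and Ccnd2, and the antigen receptor symbols Ighv5-9, Ighv6-6, Ighv9-4, Tcra and Tcrb-V8.2, each with 4 to 135 probes on the array for segments of similar sequence. In the other 39 genes 1 probe alone reached it, Nr2f1, Etv5 and Hgd among them.

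Pools differed most, among named probes, for Aph1c, Metap1 and Hmx2 on the side of pool 1, and for 4930431F12Rik, Stt3b and Tnc on that of pool 2. Metap1, an aminopeptidase, had 0.10, 7.31, -0.40 and -0.71, and Aph1c, a subunit of gamma-secretase, -0.63, 3.64, -5.25 and -0.56. The matrix protein Tnc had -0.63, -3.47, 7.19 and -0.62. Each of these 3 had its pool value set by 1 or 2 arrays. Hmx2, a homeobox factor, had pool values of 0.78 and -3.46, and Stt3b, an oligosaccharyltransferase subunit, -2.43 and 3.02. For 4930431F12Rik they were -3.10 and 2.95.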
